A study of Mus musculus with 20 samples.

Results

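The cytosolic ribosomal protein genes were taken from an RPKM table (reads scaled to a gene length of 1 kilobase and a library of 1000000 reads) by their symbols: those beginning Rpl or Rps with a number, Rplp0, Rplp1, Rplp2 and Rpsa, without kinases and annotated -ps pseudogenes. This gave 84 of the 39179 genes in the table, 51 named for the large ribosomal subunit and 33 for the small one. One of them, Rps4l, is annotated as a transcribed processed pseudogene. The table holds 20 single podocytes, the cells whose foot processes cover the outside of glomerular capillaries, taken from 1 wild-type male mouse at 8 weeks of age. The strain is given as C57BL/6 in the design text and as C56BL/6 in the sample labels. Magnetic beads were used to pull out glomeruli, enzymes freed the cells, and a Fluidigm C1 instrument captured each cell in its own well and made its cDNA. All 20 cells form 1 group from 1 animal, with no treated or control group, so no test was possible and each SD is the spread among that mouse's cells.

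The cytosolic ribosome translates nearly all messenger RNA of a cell. Its small subunit holds the messenger RNA and reads its codons, and its large subunit joins the amino acids and passes the new chain out through a tunnel. The particle carries most of its proteins in single copies. In mammals their genes lie scattered over the chromosomes and have left many processed pseudogenes, and their transcripts begin with a run of pyrimidines through which nutrient signalling by mTORC1 controls their translation. Podocytes do not normally divide, and they are large cells whose foot processes depend on continued protein synthesis.

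The reads assigned to genes, recovered from the deposited values, had a median of 6753753 and lay between 4205562 in cell 15 and 10448491 in cell 17. Each cell held 9 or 10 of 10 podocyte markers at 1 RPKM or more, the level at which a gene is called found here. Markers of other glomerular cells were also found, in numbers in 6 cells. At least 3 of 10 mesangial and mural markers were found in cells 5, 6, 10, 11 and 14, and 7 of 9 endothelial markers in cell 8. Cells 3, 8, 12 and 13 held 1 mesangial or mural marker each. Cell 5 also held 2 endothelial markers and 1 immune marker, and cells 10 and 11 held 1 endothelial marker each. No cell held a proximal tubule marker. Cell 12, at a depth of 8087267 reads, had the fewest genes found, 2371, with 2492 in cell 7 next, and it stood apart in the ribosomal protein genes. The main counts and summary values are also given without cell 12 or without the 6 cells.

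Most of the ribosomal protein genes were read in most cells, but only a minority reached 1 RPKM in all of them. Of the 84 genes, 18 were found in every cell, which is 21.4%. Over the whole table the share was 0.664%, and over the 11749 genes found in at least 1 cell it was 2.21%. Another 58 were found in 15 to 19 cells, 3 in 5 to 14 cells, 2 in 1 to 4 cells and 3 in none. The 18 genes found throughout were Rpl4, Rpl7, Rpl10, Rpl21, Rpl23, Rpl35, Rpl37, Rpl37a, Rpl38, Rpl41 and Rplp1 of the large subunit and Rps3a1, Rps14, Rps16, Rps18, Rps25, Rps27 and Rps29 of the small one. The threshold and 1 cell set this count. With any read above 0 counted, 39 genes were present in every cell, against 2.23% of the whole table. Without cell 12, 28 were found in every remaining cell. The matching share of the whole table was not computed, so the rise cannot be called particular to these genes. Of the 23 genes found in 19 cells, 10 were missed in cell 12. Over the 1680 combinations of gene and cell, 85.8% were at 1 RPKM or more, 5.12% had reads below that level and 9.05% had no read.

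**Figure D1:**
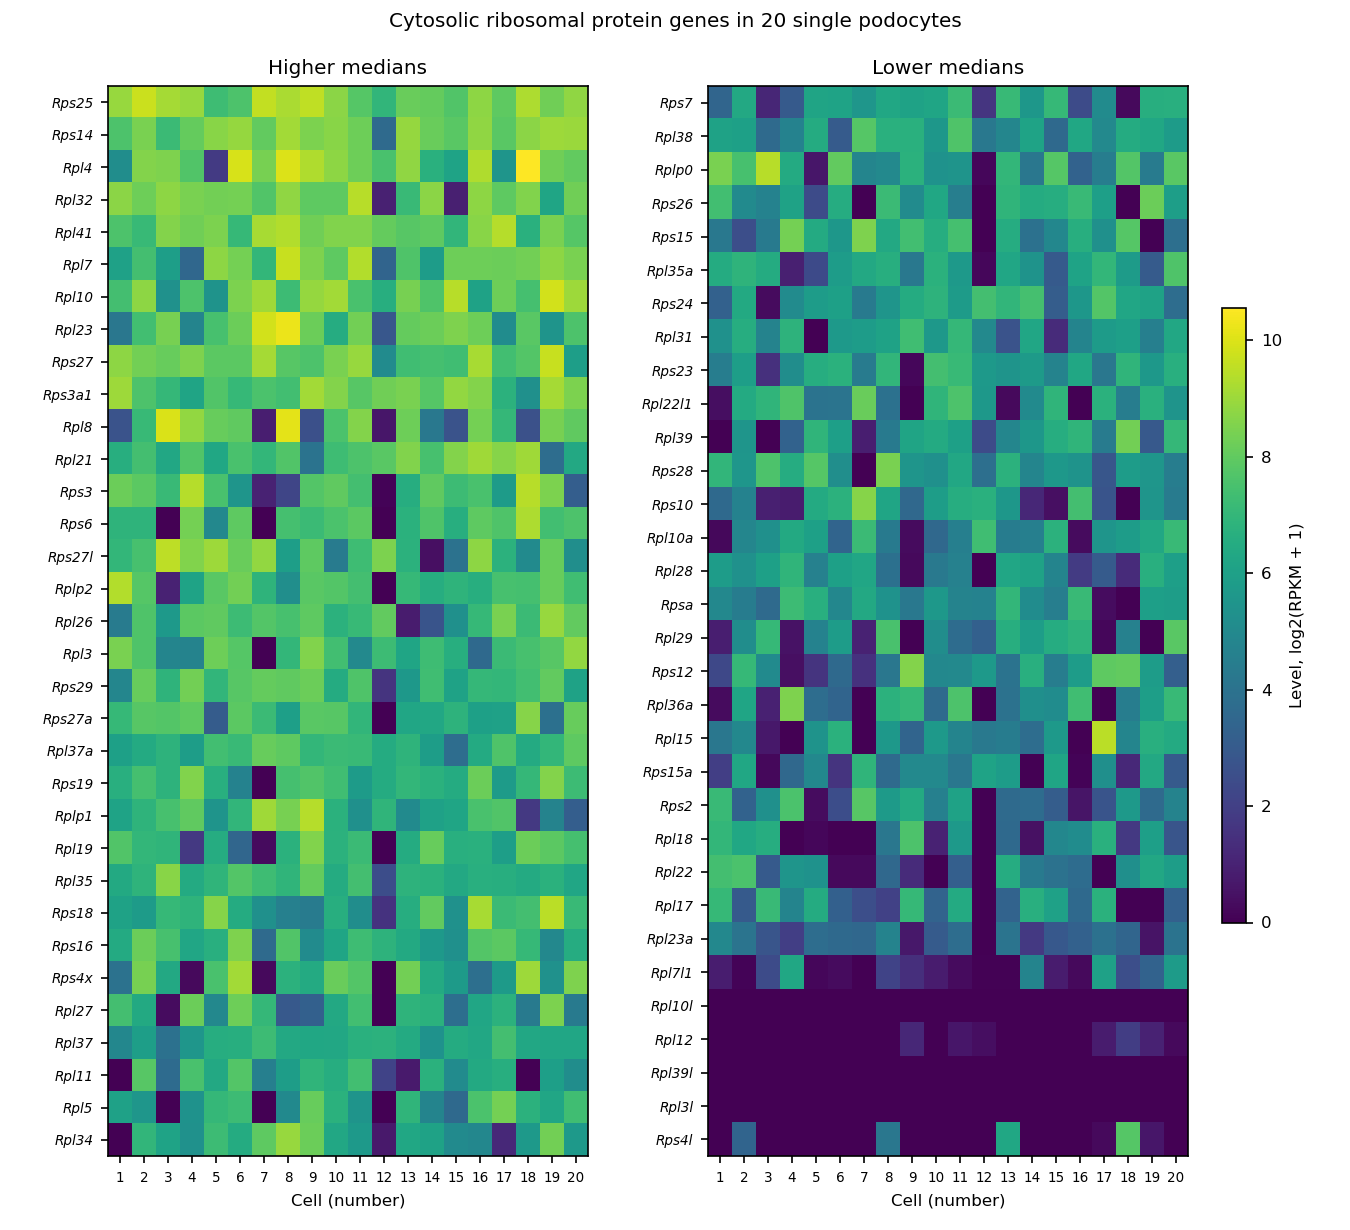
Level of the 65 ribosomal protein genes described in the text (rows, ordered by median level, in 2 panels) in each of the 20 cells (columns), as log2(RPKM + 1) by colour. Cell 12 is a dark column, with 42 of all 84 genes found, and Rpl12, Rpl3l, Rpl10l, Rpl39l and Rps4l form dark rows at the foot of the second panel.

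The levels of the 84 genes covered a wide range. Their medians over the 20 cells ran from 0 to 427 RPKM, with a median of 69.8 RPKM. A median of at least 100 RPKM was reached by 32 genes, and 46 lay between 10 and 100 RPKM. The small subunit genes had a median of medians of 86.8 RPKM and the large subunit genes one of 66.1 RPKM. Within each subunit the medians started at 0, so the ranges of the subunits overlapped nearly throughout.

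Rps25, a protein of the small subunit's head that some viral messages need to start translation, had the highest median. Its level ran from 122 RPKM in cell 12 through a median of 427 to 841 RPKM in cell 2 (mean 420 ± 216, SD, n = 20 cells), so no cell was near 0. It lies on chromosome 9, 44407139 to 44410427 on the plus strand (build GRCm38). Rps14, of the small subunit's platform, lay between 11.6 RPKM in cell 12 and 551 RPKM in cell 8, with a median of 349 RPKM (chromosome 18, 60747098 to 60778546). Rpl4, whose long loop narrows the exit tunnel, had a median of 318 RPKM but lay at 2.42 RPKM in cell 5 and 1507 RPKM in cell 18, its extremes (chromosome 9, 64173375 to 64178666). Rps25 and Rpl4 thus had like medians with unlike spreads, an SD of 216 RPKM against one of 384 RPKM. Next in order came Rpl32 at a median of 312 RPKM, Rpl41, a very short basic peptide, at 308 RPKM, and Rpl7 at 292 RPKM. Also among the 10 highest were Rpl10, which sits beside the peptidyl transferase centre, at 249 RPKM, and Rpl23, at the subunit interface, at 248 RPKM. The SDs of these 8 genes were 140 to 384 RPKM, so neighbours in the order did not differ beyond the spread between cells. With the length of the longest annotated transcript in place of the length behind the deposited values, 8 of the 10 highest stayed among the 10 highest, and Rpl4 led with 294 RPKM.

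Of the 4 proteins of the P stalk, which recruits elongation factors to the ribosome, 3 were read in most cells and the fourth hardly at all. Rplp2 had a median of 164 RPKM (0 in cell 12 to 639 in cell 1), Rplp1 111 RPKM (2.36 in cell 18 to 666 in cell 9) and Rplp0 65.4 RPKM (0.141 in cell 12 to 686 in cell 3). Rpl12, which binds at the base of the stalk together with Rplp0, had a median of 0. It had reads in 7 cells, reached 1 RPKM in 3, and was highest at 2.74 RPKM in cell 18, from 11 reads. Over the depths of the 20 cells, 3 reads of this gene stood for 0.368 to 0.913 RPKM. Rpl12 lies on chromosome 2, 32961559 to 32965345 on the plus strand. Every 50-base stretch of its coding sequence also occurs in other annotated genes, a property taken up below with that of the other genes.

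Rpl5 and Rpl11, which carry the smallest ribosomal RNA into the large subunit and can bind the p53 regulator Mdm2, were alike in level. Rpl5 had a median of 70.1 RPKM and a highest value of 324 RPKM in cell 17, and Rpl11 a median of 71.5 RPKM and a highest value of 222 RPKM in cell 2. Each was found in 17 cells. Among 8 proteins that line or surround the exit tunnel, Rpl4, Rpl26 and Rpl19 had medians of 318, 164 and 108 RPKM and Rpl35 one of 106 RPKM. Rpl39 had a median of 46.2 RPKM, and the lowest were Rpl22 at 13.5 RPKM, Rpl17 at 10.2 RPKM and Rpl23a, a docking site for the signal recognition particle, at 10.2 RPKM. Levels within this neighbourhood of the particle therefore spread over most of the range seen among all 84 genes. Around the peptidyl transferase centre, Rpl10, Rpl8 and Rpl3 had medians of 249, 219 and 152 RPKM. Rpl10a, of the mobile stalk beside the exit site, had one of 33.0 RPKM. Rpl10a was highest in cell 12, at 157 RPKM.

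The proteins of the small subunit's head and of its decoding site also differed in level. Rps3, at the entry of the messenger RNA channel, had a median of 175 RPKM, with 0.0709 RPKM in cell 12 and 690 RPKM in cell 18 at the ends. Rps27a, made as a fusion with ubiquitin, had one of 129 RPKM, and Rps18 one of 96.7 RPKM. Rps15, Rps23, Rps12 and Rps2 followed with medians of 64.2, 51.4, 29.8 and 17.9 RPKM. Of these 7 genes only Rps18 was found in every cell. Rps6, the substrate of the S6 kinases through which growth signals are read out, had a median of 168 RPKM and a highest value of 615 RPKM in cell 18, but was not read in 3 cells. Rpsa, also described as a laminin receptor, had a median of 31.9 RPKM and was found in 18 cells.

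Diamond-Blackfan anaemia is a human bone marrow failure caused by loss of 1 copy of a ribosomal protein gene. Of 19 genes from this disease list, 3 were found in every cell, Rps27, Rps29 and Rpl35, which is 15.8% against the 21.4% of all 84. The other genes were found in 15 to 19 cells, with the exception of Rpl18, which was found in 13. Medians in the list ran from 14.1 RPKM for Rpl18 to 236 RPKM for Rps27. With the longest annotated transcript as length, the median of Rps27 would be 89.6 RPKM and that of Rpl8 185 RPKM. Which gene is highest thus depends on the length used. Rps19, the gene most often mutated in the disease, had a median of 119 RPKM, was not read in cell 7 and was highest in cell 19 at 388 RPKM. Rpl8, Rpl26 and Rps29 had medians of 219, 164 and 146 RPKM. Rps26, Rpl35a and Rps24 were close to one another, at 64.2, 61.8 and 59.5 RPKM, and Rps7, Rpl27, Rpl31, Rps28 and Rps10 had medians of 67.9, 83.1, 52.9, 45.4 and 34.4 RPKM.

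Paralogs of the ribosomal protein genes differed in level. Rpl22l1 and Rps27l, and Rpl36al and Rps27rt outside the symbol rule, had medians of 46.2, 164, 58.4 and 157 RPKM. The others considered here had medians below 1 RPKM. Rpl3l, known from heart and skeletal muscle, and Rpl10l and Rpl39l, known from testis, had no read in any of the 20 cells. At these depths and with the mean transcript length, 3 reads would have stood for 0.281 to 1.05 RPKM, the level up to which they may have gone undetected. The genes they resemble were read, Rpl3 with a median of 152 RPKM, Rpl10 with 249 RPKM and Rpl39 with 46.2 RPKM. Rps4l was found in 4 cells, at 9.57 RPKM in cell 2, 17.1 in cell 8, 77.5 in cell 13 and 218 in cell 18, and its relative Rps4x had a median of 86.8 RPKM. Rpl7l1, whose yeast relative acts in ribosome assembly, reached 1 RPKM in 9 cells, with 0.768 RPKM as its median and 78.3 RPKM in cell 4 as its highest value.

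Rpl22 and Rpl22l1 encode near relatives of which either can take the same place in the large subunit. Rpl22 was found in 15 cells and ran from 0 in 3 cells through a median of 13.5 to 189 RPKM in cell 2. Rpl22l1 was found in 16 cells and ran from 0 in 2 cells through a median of 46.2 to 283 RPKM in cell 7. The ranges overlapped nearly throughout. Every cell held at least 1 of the pair: 11 held both, 4 only Rpl22 and 5 only Rpl22l1, and Rpl22l1 was the higher in 12 cells. Over the 20 cells, their Spearman correlation was −0.27. The level of Rpl22l1 depends on the length used: with the longest annotated transcript its median would be 11.8 RPKM, and that of Rpl22 4.93 RPKM. Rpl36al, which the symbol rule leaves out, had a median of 58.4 RPKM beside 27.7 RPKM for Rpl36a, and was the higher in 11 cells.

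Rps27 encodes a zinc-binding protein of the small subunit and has near relatives in Rps27l and in Rps27rt, which the symbol rule leaves out. Rps27 (chromosome 3, 90212522 to 90213651, minus strand) was found in every cell and ran from 33.0 RPKM in cell 12 through a median of 236 to 806 RPKM in cell 19. Rps27rt (chromosome 9, 114982366 to 114982739, minus strand) was found in every cell and ran from 29.7 RPKM in cell 12 through a median of 157 to 501 RPKM in cell 19. Rps27l (chromosome 9, 66946086 to 66949516, plus strand) ran from 0.362 RPKM in cell 14 through a median of 164 to 722 RPKM in cell 3. Rps27 and Rps27rt thus had their lowest and highest values in the same cells, and Rps27l in others. The ratio of Rps27rt to Rps27 stayed between 0.374 and 0.902, with a median of 0.619, and their Spearman correlation over the 20 cells was 0.98. For Rps27 and Rps27l it was 0.45. The lengths behind the values of Rps27, Rps27rt and Rps27l were 255, 341 and 450 bases, and their median reads 477, 371.5 and 493. The levels set side by side here therefore depend on these lengths. The coding sequences, 255 bases each from the GENCODE M21 transcripts, are shown because they bear on which of these values can be told apart. That of Rps27rt was identical to that of Rps27, so only Rps27 and Rps27l are given, with the bases of Rps27l that differ from Rps27 in capitals.
Rps27: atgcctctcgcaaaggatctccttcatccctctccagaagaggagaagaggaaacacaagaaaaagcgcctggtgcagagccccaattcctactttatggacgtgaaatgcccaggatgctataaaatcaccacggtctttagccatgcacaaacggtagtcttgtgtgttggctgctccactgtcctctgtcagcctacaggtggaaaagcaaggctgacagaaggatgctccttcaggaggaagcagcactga
Rps27l: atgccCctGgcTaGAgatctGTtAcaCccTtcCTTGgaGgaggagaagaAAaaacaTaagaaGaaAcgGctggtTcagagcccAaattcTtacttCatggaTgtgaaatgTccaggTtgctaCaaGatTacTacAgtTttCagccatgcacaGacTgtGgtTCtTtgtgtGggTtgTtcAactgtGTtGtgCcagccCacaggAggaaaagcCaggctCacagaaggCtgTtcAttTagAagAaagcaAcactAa
Rps27l differs from Rps27 at 61 of 255 bases, an identity of 76.1%, and the differences lie along the whole length. Of the 206 overlapping stretches of 50 bases in the coding sequence of Rps27, all are present in Rps27rt and 0 in Rps27l. A read of 50 bases from the coding part can therefore separate Rps27 from Rps27l but not from Rps27rt. The sources used here do not say how reads that align to several places were assigned, so the levels of Rps27 and Rps27rt are uncertain with respect to each other.

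**Figure D2:**
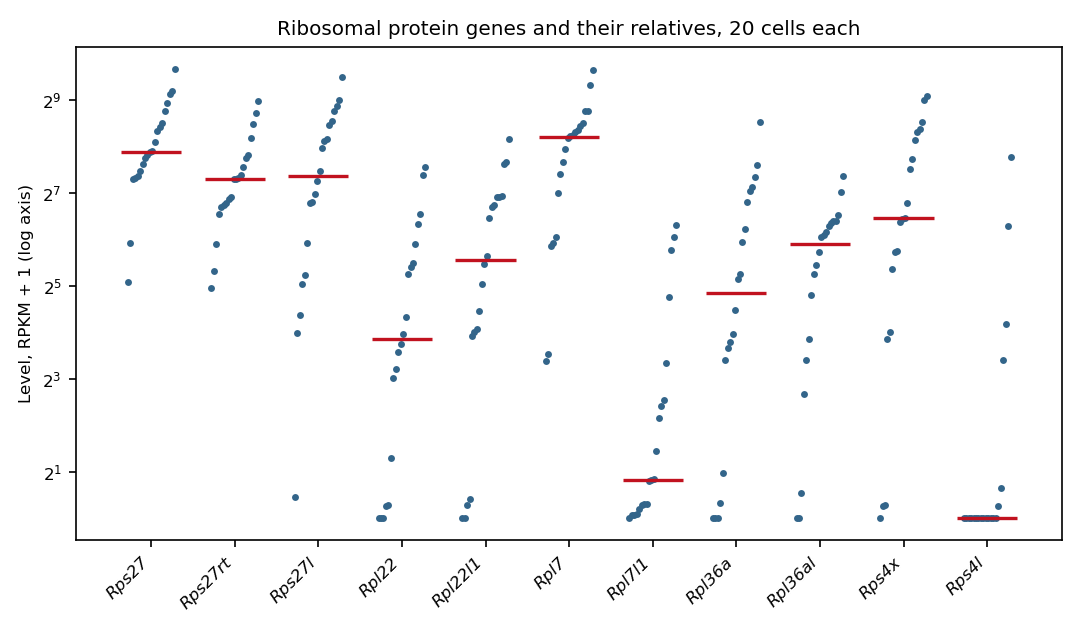
Level (RPKM + 1, log axis) of ribosomal protein genes and their relatives, with 1 point per cell, 20 cells per gene in rising order, and a red line at the median. Rps27 and Rps27rt lie above 29 RPKM in every cell, and Rpl7l1 and Rps4l lie mostly near 0 below Rpl7 and Rps4x.

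Shared stretches were the rule among the other genes too. For the 83 genes with a coding transcript, each stretch of 50 coding bases was looked up in the annotated transcripts of all other genes, on either strand. All other genes were pooled, those overlapping the same locus included, so a gene with every stretch elsewhere need not have a whole copy. A median of 90.3% of the stretches was present elsewhere. In 26 genes every stretch was present elsewhere, in 67 genes over 50%, and in 6 genes under 10%, among them Rpl3l, Rpl8, Rpl39l, Rpl41 and Rps3. Over the whole principal transcript, untranslated parts included, the median was 49.4%, and no gene exceeded 98.6%. Levels varied widely at each share of stretches found elsewhere. The 16 genes with under 50% of their coding stretches elsewhere had a median of medians of 170 RPKM. The 26 with every coding stretch elsewhere had one of 70.8 RPKM. Among these 26, medians ran from 0 for Rpl12 and 10.2 RPKM for Rpl23a to 249 RPKM for Rpl10. Rps25, with the highest median, had 98.2% of its coding stretches elsewhere, and Rpl41, at 308 RPKM, had 4.35%. Across the 83 genes, which are not independent replicates, the Spearman correlation of the median level was −0.15 with the coding share and 0.02 with the transcript share.

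**Figure D3:**
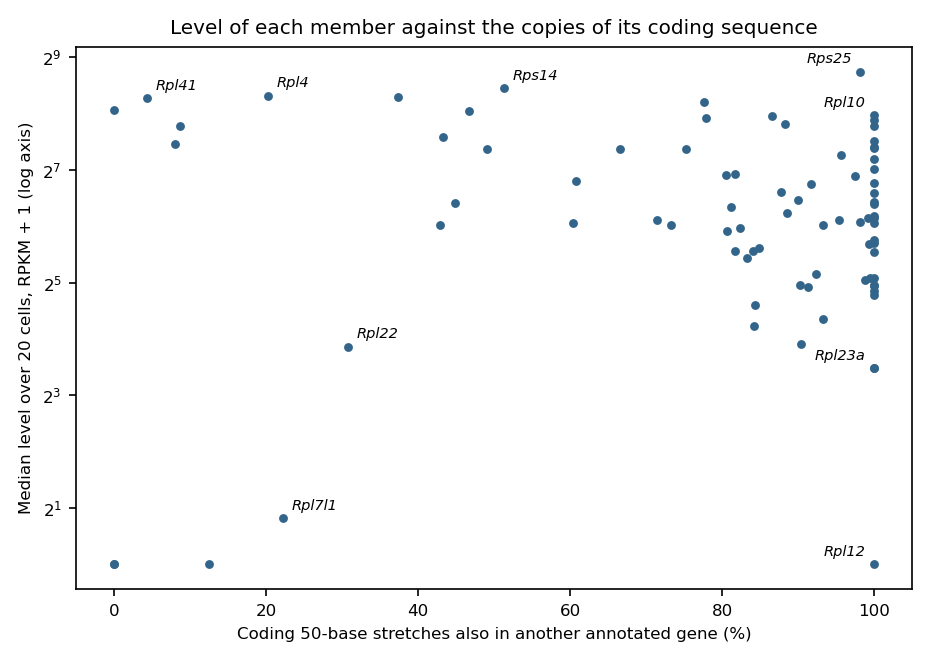
Median level over 20 cells (RPKM + 1, log axis) of 83 ribosomal protein genes against the share of their coding stretches of 50 bases that also occur in another annotated gene. The column of points at 100% runs from Rpl12 at 0 to Rpl10 at 249 RPKM. Genes with few shared stretches lie at both low and high levels.

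Rows counted as copies were mostly listed at low median levels, with high values in single cells. A row was counted if its gene shared at least 1 stretch of 50 bases with the transcript, on either strand. Only genes with Gm-number or -ps names, and a few named relatives, were counted. Shared untranslated parts also counted, so such a row need not hold a copy of the coding sequence. The table held rows for copies of 74 genes, and for 14 of these genes the copies summed to a median of at least 1 RPKM. For 4 genes the sum was at least 10% of the gene's own median. These were Rpl7l1, Rpl23a, Rps29 and Rps15a, with copy sums of 50.1, 4.35, 16.02 and 2.44 RPKM beside their own medians of 0.768, 10.2, 146 and 23.4 RPKM. For Rpl7l1, 49 rows were summed, although only 22.3% of its coding and 9.19% of its transcript stretches occurred in other genes. Its sum therefore need not come from copies of the gene. In their highest cell, the copies of Rps27a summed to 697 RPKM, above the highest value of Rps27a itself, 398 RPKM, and those of Rpl21, Rpl7l1 and Rpl17 to 505, 376 and 256 RPKM. For Rpl12, whose own median was 0, the copies also summed to a median of 0, and to 2.09 RPKM in the highest cell. Of the exons of 15 genes, over 10% overlapped another gene, with Rpl23a at 62.3% and Rpl35 at 66.2%, and the sources used here do not say whether the counting used strand.

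Cell 12 was lowest and cell 8 highest in the total over the 84 genes. Summed over the genes, the level had a median of 10929 RPKM (mean 10931 ± 2545, SD, n = 20 cells) and lay between 3760 RPKM in cell 12 and 16496 RPKM in cell 8, a ratio of 4.39. Without cell 12 the lowest was 7822 RPKM in cell 15 and the ratio fell to 2.11. The genes took a median of 0.835% of the reads of a cell. In cell 12 the share was 0.286% (95% Wilson interval 0.282% to 0.289%) and in cell 8 it was 1.28% (1.27% to 1.28%). The intervals leave out all but counting error, since PCR copies of 1 molecule are counted as separate reads, and less RNA in a cell cannot be told apart from less RNA captured.

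Cell 12 held 42 of the 84 genes, and the other cells 62 to 79, with a median over all cells of 74.5. Not all genes were low in cell 12: 14 of the 84 lay above their own median there, among them Rpl37 at 108 RPKM and Rpl10a at 157 RPKM. In the same cell 27 genes had no read. Shares over all genes in cell 12 were not computed, so these 2 counts do not set the 84 genes apart from others. Cell 8, with the highest sum, was the cell with 7 of 9 endothelial markers, whose summed level was 2340 RPKM there, 317 RPKM in cell 5, 153 RPKM in cell 10, 9.16 RPKM in cell 11 and 0.0623 to 1.70 RPKM in the others. Pecam1 and Kdr, defining endothelial genes, stood there at 81.0 and 148 RPKM, whereas Egfl7 and Erg were listed at 0. The part of these markers in the sum was not tested. Without the 6 cells with several markers of other types, the sum ran from 3760 to 13552 RPKM with a median of 10929 RPKM. In every one of the remaining 14 cells, 20 genes were found, a count made for the ribosomal protein genes alone.

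**Figure D4:**
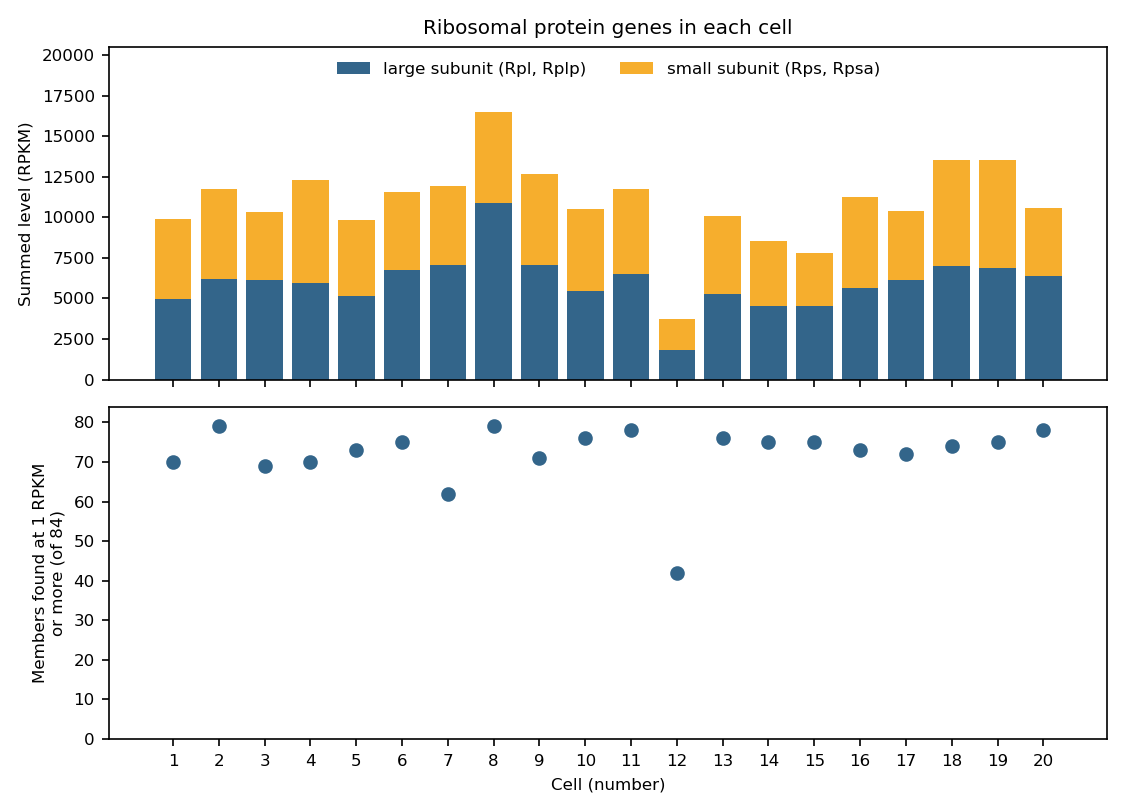
Upper panel, summed level of the ribosomal protein genes in each cell in RPKM, as stacked bars of large subunit and small subunit genes. Lower panel, the number of the 84 genes found at 1 RPKM or more in each cell. Cell 12 is lowest in both panels, with 3760 RPKM and 42 genes, and cell 8 has the tallest bar, at 16496 RPKM.

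Large and small subunit genes contributed in like amounts. The small subunit genes made up a median of 47.0% of the sum, from 34.1% in cell 8 to 51.3% in cell 4. In cell 8 the large subunit sum was 10878 RPKM, the highest of all cells, and Rpl23 at 1213 RPKM and Rpl8 at 1104 RPKM had their highest values there. The large and small subunit sums had a Spearman correlation of 0.60 over 20 cells, and of 0.53 without cell 12. The points share a library each, so depth and capture act on both sums. The summed level had a correlation of −0.01 with the number of genes found and of 0.06 with the total reads. The number of ribosomal protein genes found had one of 0.61 with the number of all genes found.

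At their level, most of the genes varied less between cells than other genes did. Variation was taken as the log2 squared coefficient of variation, less a trend over all genes of the same mean, so that values below 0 mean less variation than the trend. It was computed for the 5470 genes whose mean reached 10 RPKM, which included 80 of the 84 ribosomal protein genes and left out Rpl3l, Rpl10l, Rpl12 and Rpl39l. The median of the 80 was −1.68, and 77 lay below the trend (96.2%), beside 49.9% of all 5470 genes. Their median coefficient of variation was 0.846, beside 2.28 over all 5470 genes, a comparison not matched for level. The median was −1.74 without the 6 cells with markers of other cell types and −1.17 in the genes with under 50% of their coding stretches elsewhere.

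The genes of lowest variation at their level were Rpl37 (−4.12), Rpl23a (−4.09), Rpl37a (−3.03), Rpl31 (−3.00) and Rpl28 (−2.98). Rpl37, a zinc-binding protein of the large subunit, ran from 14.3 RPKM in cell 3 through a median of 80.5 to 167 RPKM in cell 17 (mean 81.9 ± 36.0, SD, n = 20 cells). Rpl23a ran from 0 in cell 12 through a median of 10.2 to 29.8 RPKM in cell 1. Rpl37a, also zinc-binding, ran from 12.6 RPKM in cell 15 through a median of 121 to 275 RPKM in cell 7. In these 3 genes no single cell lay far above the others. The highest residuals were those of Rpl15 (0.40), Rps4l (0.18) and Rpl8 (0.13), followed by Rpl4 (−0.03) and Rpl23 (−0.11), the last 2 just below the trend. Rpl15, a large subunit protein, had a median of 26.4 RPKM and reached 698 RPKM in cell 17, where it had 7259 reads, while the next highest cell had 105 RPKM. Rpl8 ran from 0.574 RPKM in cell 12 through a median of 219 to 1104 RPKM in cell 8.

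**Figure D5:**
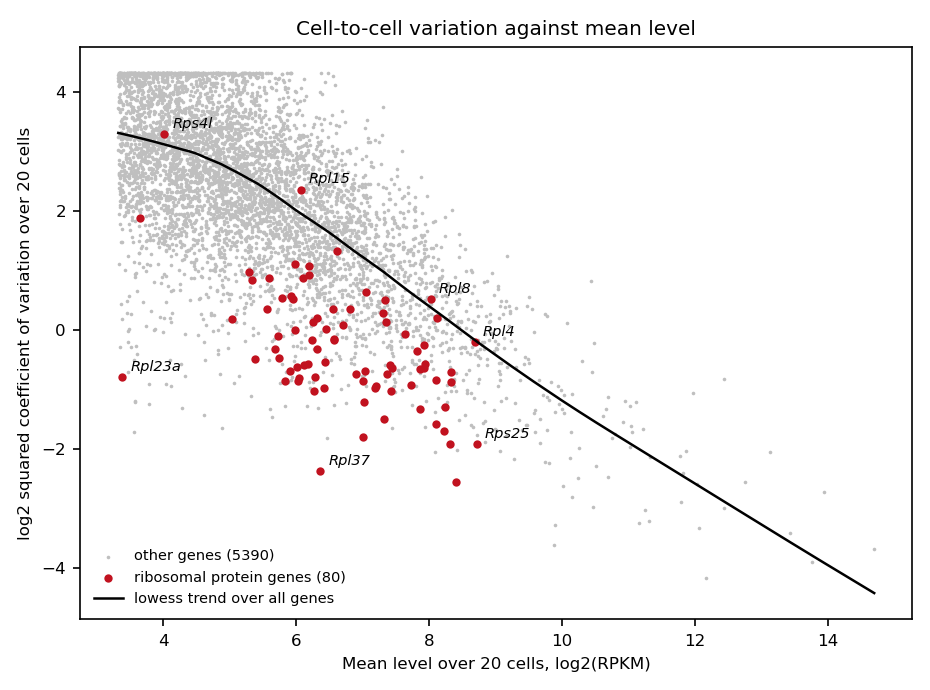
Log2 squared coefficient of variation over 20 cells against log2 mean level for the 5470 genes whose mean reached 10 RPKM, with 80 ribosomal protein genes in red and a lowess trend over all genes as a black line. The red points lie below the line for 77 of the 80 genes, and Rpl15, Rps4l and Rpl8 lie above it.

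The genes did not rise and fall together to a large degree. The median Spearman correlation over all pairs was taken for the 80 genes whose mean reached 10 RPKM. It was 0.07 over the 20 cells, 0.02 without cell 12 and 0.08 without the 6 cells with markers of other cell types. Single genes were set against the sum of the others. Rps29, a zinc-binding protein of the small subunit's head, had the highest correlation at 0.78, and ran from 2.03 RPKM in cell 12 through a median of 146 to 317 RPKM in cell 4. Rpl4 at 0.54 and Rpl31 and Rpl34 at 0.52 each were also among the 5 highest. Among the 5 lowest were Rpl17 (−0.40), Rps3a1 (−0.32) and Rpl29 (−0.26). Rps3a1, present throughout, had a median of 223 RPKM, while Rpl17 and Rpl29 had medians of 10.2 and 29.9 RPKM, so genes at both ends of the level range were among these. Cells share the animal, and depth and capture differ between libraries, so these correlations describe the 20 libraries.

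Beside other protein complexes, the ribosomal protein genes were found in more cells. Of 77 mitochondrial ribosomal protein genes, which build the separate ribosome of the mitochondrion, 0 were found in every cell. Their median of medians was 0.158 RPKM, and the median residual variation of the 60 whose mean reached 10 RPKM was −0.30. Of 39 proteasome subunit genes, 1 was present in every cell (2.56%). Their median of medians was 9.28 RPKM, and the median residual of the 34 whose mean reached 10 RPKM was 0.12. Components of the cytosolic ribosome outside the symbol rule were uneven. Fau, which encodes a ubiquitin-like fusion with a small subunit protein, had a median of 68.2 RPKM, and Rack1, a scaffold on the small subunit's head, one of 6.11 RPKM.

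Other genes of translation were mostly found in fewer cells than the ribosomal proteins. Eef1a1, which delivers aminoacyl-tRNA to the ribosome, had a median of 917 RPKM (73.1 in its lowest cell to 2668 in cell 9), above that of each of the 84 genes, and was the only one of 9 elongation factor genes found in every cell. Eef1a2, its relative of muscle and neurons, was found in none. Among 35 initiation factor genes, Eif3m and Eif1 were present throughout (5.71%), at medians of 813 and 198 RPKM, and the list's median of medians was 1.19 RPKM, with Eif2b2 at 0. Of 43 ribosome assembly genes, 0 were found in every cell. Sbds, which helps release a factor that keeps the subunits apart, was the highest at a median of 262 RPKM, and Nop56, of the nucleolar particles that methylate ribosomal RNA, had a median of 0. Of 24 genes of mTORC1 signalling and translation control, only Pdcd4, an inhibitor of the initiation helicase, was present in every cell (4.17%), and its median was 93.1 RPKM. Mtor reached 1 RPKM in 5 cells and had a median of 0. Of 7 other genes whose messages carry the same terminal pyrimidine run, Pabpc1, the poly(A) binding protein, was present throughout but at the lowest median of the list, 29.1 RPKM, and Vim, the filament protein vimentin, had the highest median at 470 RPKM. Their median of medians, 74.8 RPKM, was close to the 69.8 RPKM of the ribosomal protein genes.

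The start sites of the genes were examined because the pyrimidine run lies there. The RefSeq promoter table (GRCm38.p6), which gives 250 bases before to 50 after each start, held an entry for 63 of the 84 genes. Within the last 100 bases, read on the transcribed strand, CTTTCC was present in 19 of 63 (30.2%), beside 5.43% of 27025 genes. Over the whole window and both strands it was present in 52.4%, beside 29.3%. CCGGAAGT, a motif of ETS family factors, was present over the whole window and both strands in 19% beside 4.31%, AAGATGGC, a motif of YY1, in 9.52% beside 3.19%, and TATAAA, the TATA box, in 11.1% beside 15.7%. In the last 100 bases on the transcribed strand, these 3 motifs were present in 7.94% beside 1.59%, 3.17% beside 1.14% and 7.94% beside 4.05%, so that the direction for TATAAA turned with the window. None of these 4 motifs contains another. A match is a run of letters and not a tested site. Of the 18 genes found in every cell, 13 had an entry, and 4 of these held CTTTCC in the last 100 bases. Their windows from 50 bases before to 20 after the annotated start are printed 5′ to 3′ on the transcribed strand, with the motif in capitals, to show where it falls.
Rpl35 (chr2:39005112-39005181, minus strand): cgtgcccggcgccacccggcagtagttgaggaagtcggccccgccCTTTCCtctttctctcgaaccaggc
Rps27 (chr3:90213629-90213698, minus strand): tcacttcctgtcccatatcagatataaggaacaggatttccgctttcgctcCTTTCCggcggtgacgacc
Rpl4 (chr9:64173337-64173406, plus strand): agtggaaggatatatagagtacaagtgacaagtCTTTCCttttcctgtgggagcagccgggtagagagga
Rpl38 (chr11:114668530-114668599, plus strand): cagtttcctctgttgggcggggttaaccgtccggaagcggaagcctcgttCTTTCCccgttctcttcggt
Counting the annotated start as position 1 and the base before it as position −1, the motif began at 1 in Rpl38, at 2 in Rps27, at −5 in Rpl35 and at −17 in Rpl4. Rpl35 had a median of 106 RPKM (4.58 in cell 12 to 408 in cell 3) and Rpl38, known from mice in which its loss disturbs the pattern of the skeleton, one of 65.4 RPKM (7.27 in cell 6 to 216 in cell 7). The 4 genes thus had medians from 65.4 to 318 RPKM.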

How the data were processed

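The values deposited by the authors are RPKM for 39179 Ensembl genes in 20 single cells. The submitters' processing notes name build GRCm38, HTSeq 0.6.1 and TopHat2 2.0.12. How strand and reads with several alignments were treated is not given in those sources. In the table, 1 blank was set to 0, and values were not rescaled.

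Members were matched on the table's gene symbols without regard to letter case. Names and coordinates come from GENCODE M21 (GRCm38), which matched 37607 IDs. Members and lists were chosen with earlier results of these data known. The members named are the 10 with the highest and the 10 with the lowest median, the 5 at each end of residual variation and of correlation with the other members' sum, the genes of the role lists and the paralogs; of each list of other translation genes, its highest and lowest gene and those found in every cell. Some of these genes are not reported here. Genes set beside these as relatives, the members found in every cell, and members named for a high copy or overlap share, were added after their values were seen.

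Total reads per cell (4205562 to 10448491) were recovered from RPKM values of single-transcript genes, and reads and lengths as the smallest length giving whole reads within 0.001. That length was the mean transcript length, within 1 base, for 34 of the 81 members with reads, so RPKM of a gene with many short transcripts is raised. Recovery was tested on simulated data. The variation trend is a lowess fit (span 0.3). Cells of 1 mouse are 1 sample, and no test was run. Copies were sought in GENCODE M21 transcripts as stretches of 50 bases. Python 3.11.15, pandas 2.3.3, scipy 1.17.1 and statsmodels 0.14.6 were used. Alternatives were other thresholds, rescaling, longest transcripts, other measures of spread and correlation, and leaving out cells or copied genes.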

Additional observations from a re-analysis of the deposited data

How the results depend on the processing

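The count of 18 genes found in every cell became 39 with any read counted and 28 without cell 12; it was 13 at 5 RPKM, 23 after rescaling each cell to a sum of 1000000, 20 without the 6 cells with markers of other cell types and 18 without the paralogs. Shares over the whole table were computed only for the main count and for that with any read. The median level of 69.8 RPKM became 118 RPKM after rescaling and 170 RPKM over the 16 genes with under 50% of coding stretches elsewhere. The highest over the lowest summed level, 4.39, became 11.5 from the mean of log2(RPKM + 1) and 2.11 without cell 12. The median residual variation of −1.68 became −0.91 with the SD of log2(RPKM + 1), where 77 of the 80 genes lay below the trend, beside 45.5% of all genes. The median pair correlation of 0.07 became 0.12 with Pearson correlation and 0.0193 without cell 12. Rescaling raises every value by construction, since the deposited values of a cell summed to 542042 to 611232. The values from log2(RPKM + 1) and from Pearson correlation are other measures than the main ones, and that over 16 genes is of another gene set. They are therefore not shifts of the same quantity. The cause of the remaining shifts was not tested. The other alternatives for these 5 results moved them by less than 1.5 times, or by less than the spread between cells for levels. Of the 63 genes that the naming rule gives, the median moved by more than 1 SD over cells in 8 after rescaling and in 1 with the longest transcript. The alternatives without cell 12 for the sum, variation and correlation, and those without the paralogs, were chosen after seeing the data. No paired analysis was possible because all cells form 1 group.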
